A study of Mus musculus with 30 samples.

Results

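The regions described here are narrow Snf2h-bound regions that 2 CH12 B lymphoma lines shared and that coincided with cohesin-bound sites mapped in NIH3T3 fibroblasts. Snf2h peaks of wild-type and of mutant CH12 cells on chromosomes 1 to 19 were merged where they overlapped or touched. Members were chosen by these measured calls: a merged region had to be called in both lines, be under 500 bp wide and share at least 1 bp with a region of each of 6 NIH3T3 cohesin lists. There were 1598 members among 29815 merged Snf2h regions, and among 7923 narrow shared ones, which is 20.2% of the latter (exact 95% interval 19.3 to 21.1%). Another 5379 narrow shared regions (67.9%, 66.9 to 68.9%) touched no cohesin list and served as the comparison set. The remaining 946 touched 1 to 5 lists. The Snf2h calls, the width and the cohesin calls were used to choose them, so those quantities are given as description and carry no test.

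Snf2h was mapped by ChIP-seq (chromatin sheared after formaldehyde fixation, enriched with an antibody and sequenced) in CH12, a mouse B lymphoma line. One list came from wild-type CH12 and 1 from mutant CH12, in which Cas9 removed zinc fingers 9 to 11 from both copies of the CTCF gene. The cohesin lists came from NIH3T3, an immortalized mouse embryonic fibroblast line, with antibodies against SMC1, RAD21 and SMC3. NIH3T3 cells stably carried either an empty vector, a CpG-free plasmid that expresses beta-galactosidase, or the same kind of plasmid expressing BORIS. The BORIS cells were 1 clone, clone 2, so an effect of BORIS and a property of that clone cannot be told apart. Each of the 8 groups had 1 list, and no difference between groups has a replicate check. Snf2h and cohesin were not measured in the same cells, so a shared position is a position bound in 2 cell types.

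Snf2h is the motor subunit of ISWI-type remodellers, which use ATP to slide nucleosomes into evenly spaced arrays. In mouse cells it is needed for stable binding of CTCF to many of its sites and for the regular nucleosome arrays beside them. CTCF binds DNA through a row of zinc fingers and halts cohesin, a ring of SMC1, SMC3 and the kleisin RAD21 that extrudes chromatin loops, so that cohesin peaks in mammalian cells mark many CTCF sites. BORIS (CTCFL) is a paralogue of CTCF that is normally expressed in the male germ line and has a similar zinc finger domain.

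The wild-type Snf2h list held 16793 regions and the mutant list 23441 on these chromosomes, and the cohesin lists held 80268 to 105041. The number of reads per library was not given in the sources used here. As a stand-in, the lowest local background of a list, in fragments over a position, was 3.36 in wild-type and 2.58 in mutant CH12 and 0.908 to 1.03 in the cohesin lists, so the Snf2h libraries were the deeper ones by this measure. Positions are given as in the lists, counted from 1, in mm9 per the submitters' processing notes. No genome or gene annotation of that build was used here, so members are described by position and not by gene or sequence.

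Most members were single, modest Snf2h peaks. Their median merged width was 347 bp (quartiles 293 and 410), and 1597 of 1598 were made of 1 peak in each line. In wild-type cells the authors' fold at the peak's summit, the position of highest read density, was 1.30 at the lowest, 3.63 at the median and 26.7 at the highest member. In mutant cells the same values were 1.39, 4.11 and 29.1. Behind these folds stood a median pileup of 25 fragments over a local background of 6.03 in wild type and 24.5 fragments over 5.24 in the mutant. The pileups were thus alike, and the median background was lower in the mutant list.

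Members were weaker than narrow shared Snf2h regions away from cohesin, but not weak in the whole lists, where their median percentiles were 53.9 in wild type and 58.7 in the mutant. Narrow regions at all 6 cohesin lists that only 1 line called had medians of 34.0 (wild type) and 33.0 (mutant). Ranked by −log10 p among the 7923 narrow shared regions, members had a median percentile of 40.9 (interval of the median 38.5 to 42.9) in wild type and 38.0 (35.99 to 39.96) in the mutant. Regions with no cohesin list had medians of 53.8 (52.5 to 55.3) and 54.5 (53.3 to 55.6). Regions without cohesin had median pileups of 27 (wild type) and 29 (mutant) over backgrounds of 6.03 and 5.16. At 178 members the −log10 q was 10 or more in each line (11.1%, 9.64 to 12.8%), against 23.1% of regions with no cohesin. The intervals cover counting error only, and regions near one another are not independent.

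A small group of members stood apart by its local background and is separated here because it holds 4 of the 5 highest places of the Snf2h ranking. In 45 members (2.82%, 2.06 to 3.75%) the local background was over 10 times the list's lowest in every one of the 6 cohesin lists. Their median empty-vector RAD21 pileup was 108 fragments over a background of 38.0, where the other members had 68 over 2.33. The latter values are over the 1536 of 1553 whose pileup could be recovered, which leaves out the strongest cohesin sites. The authors' cohesin folds were under 3 in all 6 lists at 26 of the 45, and at 0 of the other members. These regions had a median Snf2h pileup of 108 in wild type and 112 in the mutant, against 25 and 24 in the others, and in 17 of them the background was also over 10 times the lowest in both Snf2h lists. Chromosome 9 held 12 of them and chromosome 6 held 9, and 16 of the 31 gaps between neighbours on a chromosome were at most 10 kb, against 42 of 1534 among the other members. They made up 25 of the 159 members in the top decile of Snf2h strength among members. The median background of the 45 was alike across the cohesin lists, from 37.9 (BORIS RAD21) to 44.8 fragments (empty-vector SMC3). Controls are not given, so the 6 lists may not be 6 separate observations of it. What gives these positions a high background was not tested, and the results that follow are given without them where a value turns on them.

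Of the 5 strongest members, ranked by the lower of their Snf2h percentiles, 4 belonged to this group. At chr12:3109761-3110224 the Snf2h folds were 25.7 (wild type) and 24.9 (mutant), with pileups of 269 and 272. The cohesin pileups there were 232 to 246, nearly as high, but the cohesin folds were only 2.32 to 2.74. At chr6:103598945-103599390 the Snf2h folds were 26.7 and 29.1 with cohesin folds of 2.55 to 3.04, at chr13:77578063-77578423 they were 21.9 and 23.8 with 2.12 to 2.55, and at chr4:70039045-70039402 they were 22.6 and 23.2 with 1.80 to 2.01. All 4 thus combined high Snf2h folds with a cohesin signal that was high in fragments and low over its local background. What the local background was drawn from is not given for either protein.

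The remaining one of those 5 had the opposite make-up. At chr13:89688424-89688915 the Snf2h folds of the lines were 21.8 and 26.9 (pileups 204 and 253), and the cohesin pileups were 9 to 33 fragments with folds of 3.99 to 16.8. Once the 45 were set aside, a step chosen after the data were seen, the next strongest were chr11:72990700-72991184 with Snf2h folds of 12.5 and 15.4, chr4:132789578-132789987 with 12.4 and 11.9, chr15:78280923-78281306 with 10.4 and 10.6, and chr5:111982870-111983357 with 11.9 and 13.7. Their cohesin folds ranged from 3.82 to 33.7, so the strongest Snf2h members were not the strongest cohesin sites.

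The weakest members sat near the calling limit in 1 line and higher in the other. At chr17:46965749-46966163 the wild-type fold was 3.58 and the mutant fold 2.55, at chr9:44774899-44775169 it was 2.60 and 3.63, and at chr11:115345135-115345398 it was 3.82 and 3.03. Cohesin was not weak at all 3 of these positions, with folds of 5.89 to 11.98, 22.7 to 50.2 and 13.04 to 31.2.

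**Figure D1:**
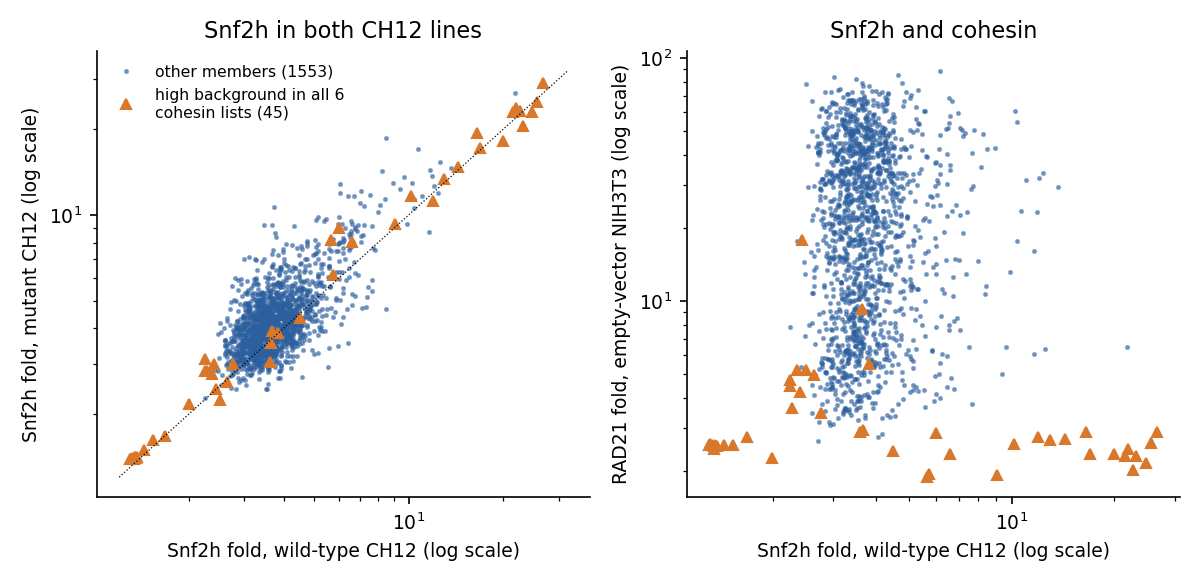
Each point is 1 member, with the authors' Snf2h fold in wild-type CH12 on the x axis and, on the y axis, the Snf2h fold in mutant CH12 (left, dotted line of equal values) or the RAD21 fold in empty-vector NIH3T3 (right); all axes are logarithmic. Triangles are the 45 members with a high background in all 6 cohesin lists, which reach Snf2h folds of 26.7 and 29.1 while most of their RAD21 folds lie near 2.57.

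The share of narrow shared regions that were cohesin sites was lower among stronger Snf2h regions. In decile 1, the weakest, by the lower of the Snf2h percentiles, 216 of 793 regions (27.2%) touched all 6 cohesin lists. The share was 23.0% in decile 6, 18.4% in decile 7, 13.3% in decile 8 and 9.09% in decile 9. It was 12.1% in decile 10, where 20 of the 96 members were of the high-background group, and 9.84% without them. The share that touched no cohesin list ran the other way, from 59.9% in decile 1 to 78.9% in decile 9 and 74.7% in decile 10. Both quantities were used by the rule, so the trend is description.

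**Figure D2:**
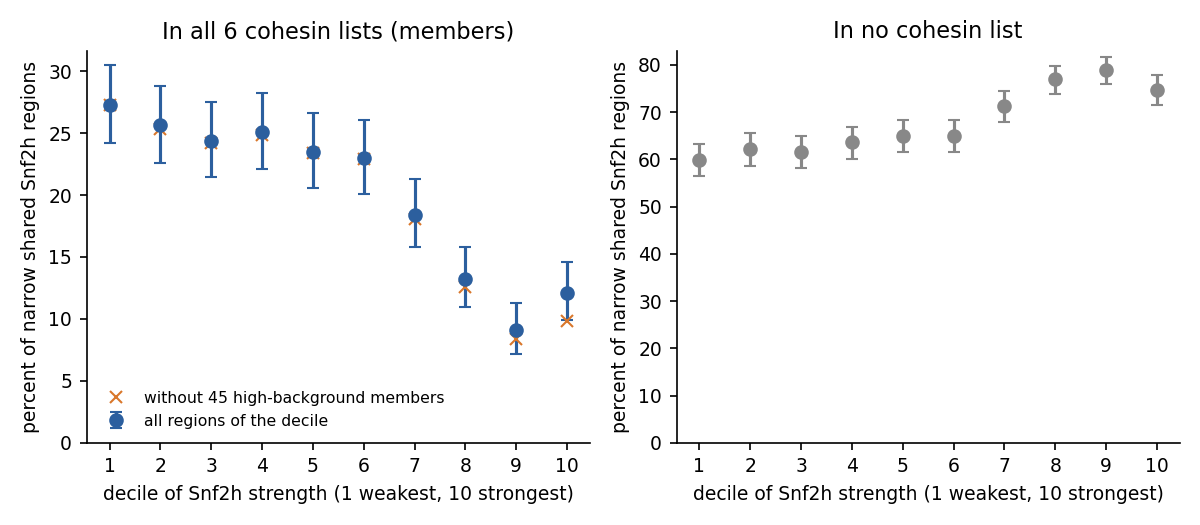
Narrow shared Snf2h regions were split into deciles of Snf2h strength (x axis, weakest to strongest), and the y axes give the percent of each decile touching all 6 cohesin lists (left) or none (right), with exact 95% intervals; crosses leave out the 45 high-background members. The left panel declines from 27.2% to 9.09% in decile 9, and the right panel climbs from 59.9% to 78.9%.

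Cohesin at the members ranked high in each whole list. The rule asked for a call in every cohesin list, which leaves out regions called in only some of them. Part of these high ranks may thus follow from the rule itself. In empty-vector cells the median percentile in the whole list was 85.3 with the SMC1 antibody, 80.2 with RAD21 and 84.8 with SMC3. In BORIS cells it was 85.0, 79.7 and 85.4 in the same order. The median folds were 18.1, 21.2 and 20.6 in empty-vector cells and 13.1, 14.6 and 16.3 in BORIS cells. In all, 362 members (22.7%) were among the strongest 10% of every list, and 427 (26.7%) lay below the median of at least 1 list.

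A fairer yardstick was the set of 50858 merged cohesin regions called in all 6 lists, since every member had such calls by rule. Of these, 1585 (3.12%) held a member, and 7219 (14.2%) held any Snf2h region. In this set the regions with a member had SMC1, RAD21 and SMC3 medians at percentiles 70.6, 69.0 and 70.7 in empty-vector cells and 72.1, 68.8 and 70.8 in BORIS cells. The 43639 regions with no Snf2h had medians of 47.4 to 47.8. The median empty-vector RAD21 fold was 21.6 (20.1 to 22.7) with a member and 12.5 (12.4 to 12.7) without Snf2h. The cohesin regions with a member were also wider, 576 bp against 439 bp at the median, and the part of that width in the result was not tested.

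The share of cohesin regions that held a member grew with cohesin strength. It was 1.53% in decile 1, the weakest by the lowest of the 6 percentiles, 2.44% in decile 5, 4.68% in decile 9 and 7.06% in decile 10. The share that held any Snf2h region went from 9.10% to 28.0%. Cohesin regions above the 90th percentile in all 6 ranks made up 12.2% (10.6 to 13.9%) of those with a member. The share was 4.07% of those with no Snf2h and 5.03% of all 50858. The 5634 cohesin regions that held a different Snf2h region were close to those with a member, with 10.5% (9.72 to 11.3%) above that limit, median percentiles of 65.1 to 66.7 and a median empty-vector RAD21 fold of 19.4. Strong cohesin thus went with Snf2h regions in general, and was not particular to members.

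**Figure D3:**
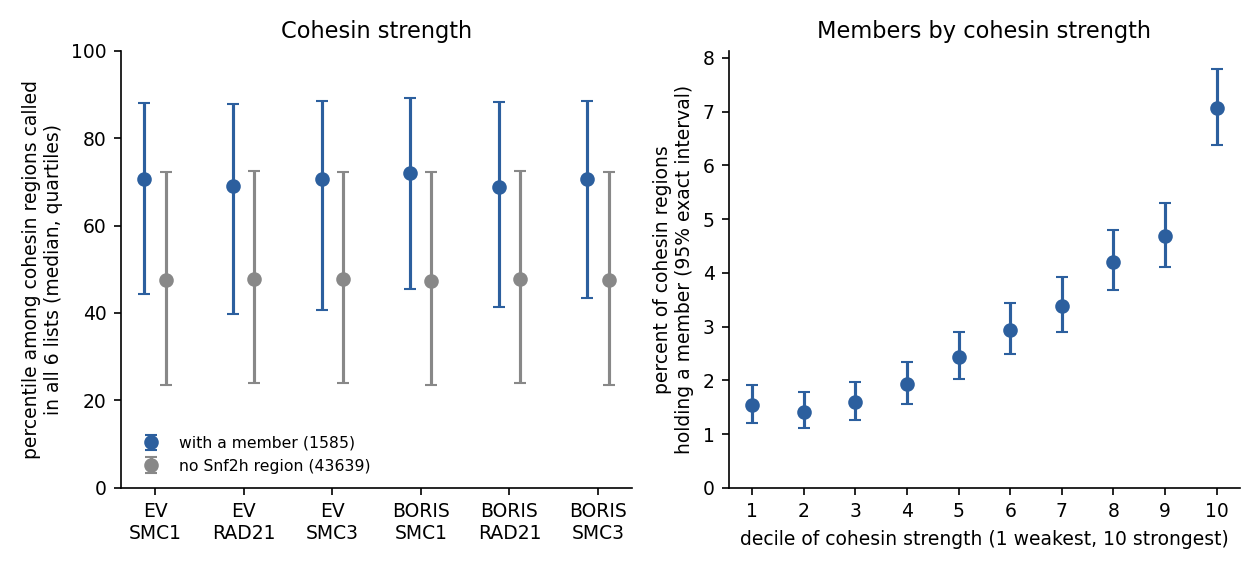
Left, percentile of cohesin regions among those called in all 6 lists (y axis; points are medians, bars quartiles) for each antibody and line, with regions that hold a member set against regions with no Snf2h. Right, percent of cohesin regions that hold a member (y axis, exact 95% intervals) by decile of cohesin strength (x axis), from 1.53% to 7.06%.

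The 3 members with the highest value of their lowest cohesin percentile were extreme cohesin sites, with Snf2h from below to well above the members' median. At chr19:43698223-43698571 the cohesin folds were 88.7, 88.5 and 93.8 for SMC1, RAD21 and SMC3 in empty-vector cells and 85.0, 89.6 and 95.01 in BORIS cells, with Snf2h folds of 6.16 (wild type) and 7.37 (mutant). At chr1:184920981-184921369 the cohesin folds were 53.6 to 71.4 and the Snf2h folds 4.35 and 6.51. At chr11:120637462-120637836 they were 41.1 to 61.1, with Snf2h folds of 4.28 and 3.58.

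The cohesin ranks of the members differed little between empty-vector and BORIS cells. The median difference in percentile, BORIS minus empty vector, was 0.39 points with the SMC1 antibody, 0.19 with RAD21 and 0.40 with SMC3. A rank over 20 points higher in BORIS cells was found at 7.82% (SMC1), 5.74% (RAD21) and 5.99% (SMC3) of cohesin regions with a member, where the share over all 50858 regions was 11.1%, 6.78% and 8.21%. A rank over 20 points lower was found at 6.81%, 3.66% and 3.72%, against 11%, 6.59% and 8.09% overall. All 6 shares were below those over all regions, although the interval of the higher RAD21 share (4.65 to 7.003%) held the overall value. Cohesin regions with a different Snf2h region were also below in all 6, at 8.89%, 4.79% and 6.39% higher and 7.21%, 4.28% and 4.38% lower. All 3 subunits ranked higher by that much at 24 of the 1585 regions (1.51%) and lower at 13 (0.82%), against 2.29% and 1.35% of all regions.

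Within a member, Snf2h and cohesin did not peak at the same base. The strongest summits of the 6 cohesin lists lay within a median span of 34 bp of each other (quartiles 23 and 64), and within 50 bp at 1116 members (69.8%). Their median position is called the cohesin centre below. It lay inside the Snf2h region at 1364 members (85.4%, 83.5 to 87.1%). The Snf2h summit was a median of 71.5 bp (68 to 76) from that centre in wild type and 80 bp (76.5 to 85) in the mutant. The intervals did not overlap, but 1 list stood for each line and the same members were in both. The members' peaks were also wider in the mutant list, with a median of 298 bp against 245 bp in wild type. The part of peak width in these distances was not tested.

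The Snf2h summits spread over a plateau on both sides of the cohesin centre. In wild type 284 members (17.8%) had the summit within 25 bp of it, 759 (47.5%) over 25 and up to 100 bp away, and 214 (13.4%) over 200 bp away. In the mutant the counts were 228 (14.3%), 759 (47.5%) and 218 (13.6%). Per 20 bp of distance, wild type had 221 members at up to 20 bp, 209 at 20 to 40 bp, 225 at 40 to 60 bp and 224 at 60 to 80 bp, and then 163. The mutant had 170, 194, 223, 210 and 183. Cohesin summits, by contrast, lay a median of 10 to 12 bp from the median of the other 5 lists.

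Neither side of the coordinate axis was preferred. The wild-type summit had the lower coordinate at 815 of 1597 members (51.0%) and the mutant summit at 800 of 1597 (50.1%). Both Snf2h summits were over 30 bp from the centre at 1093 members, and at 949 of them (86.8%, 84.7 to 88.8%) they lay on the same side. Where the centre lay inside the Snf2h region, so that both sides were open to a summit, the count was 715 of 859 (83.2%, 80.6 to 85.7%). At the 144 members with summits on opposite sides the summits of the lines were a median of 149.5 bp apart, against 33 bp on the same side. The peaks of the lines overlap or touch and the region is under 500 bp wide by rule, which favours the same side, so the share is description.

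**Figure D4:**
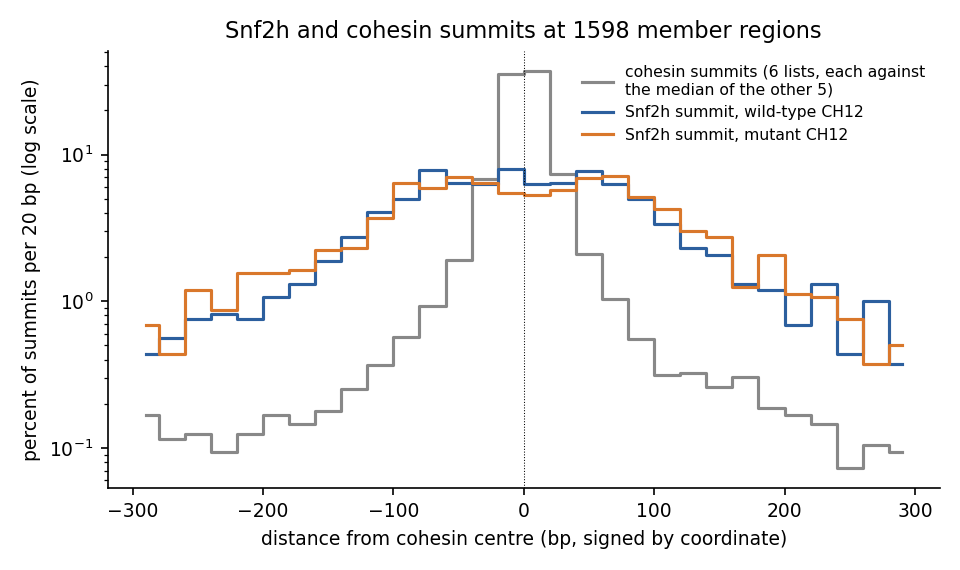
Percent of summits per 20 bp (y axis, log scale) against signed distance from the cohesin centre (x axis, bp) at the 1598 members, for the Snf2h summit of each CH12 line and for the cohesin summits, each of these set against the median of the other 5 lists. The cohesin summits form a narrow spike, and the Snf2h summits a plateau out to about 80 bp on either side.

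The named cohesin sites show the range of these distances. At chr19:43698223-43698571 both Snf2h summits were far from the cohesin centre and 1 bp apart, at -253.5 bp in wild type and -254.5 bp in the mutant. At chr11:120637462-120637836 they were on opposite sides, at 59.5 and -77.5 bp. At chr1:184920981-184921369 they were at -57.0 and -100.0 bp.

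The 2 CH12 lines placed the Snf2h summit less exactly at members than elsewhere. The summits were a median of 48 bp apart (44 to 51; quartiles 18 and 92), and within 50 bp at 832 members (52.1%, 49.6 to 54.5%), where the share over all narrow shared regions was 62.8%. Regions with no cohesin had a median of 30 bp (29 to 32) and a share of 65.9%. Split by Snf2h strength, in deciles 1 to 3 the medians were 70 bp (64 to 77) for members and 67 bp (62 to 73) without cohesin. In deciles 4 to 7 they were 48 bp (43 to 52) and 34 bp (32 to 36), and in the strongest, deciles 8 to 10, they were 19 bp (16 to 23) and 17 bp (16 to 18). The intervals of the medians were apart in the middle deciles and overlapped at both ends. By the share within 50 bp the strongest deciles also differed, at 81.3% (76.2 to 85.8%) of members and 89.3% (87.8 to 90.7%) without cohesin.

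The mutant was compared with wild type by the rank of each region among the same 7923 narrow shared regions. The median difference at members, mutant minus wild type, was -0.62 percentile points (-2.01 to -0.01), with quartiles of -18.4 and 13.8. A rank over 20 points lower in the mutant was found at 374 members (23.4%, 21.3 to 25.6%), where the share over all narrow shared regions was 19.3%. A rank over 20 points higher was found at 303 members (18.96%, 17.1 to 20.97%), against 18.8% overall. Regions with no cohesin had 18.3% (17.3 to 19.3%) lower and 18.6% (17.6 to 19.7%) higher. The excess of members on the lower side was 374 against 303 regions, and with 1 library a line it has no test. Among the 178 members with a −log10 q of 10 or more in each line, ranked among narrow shared regions of that strength, both shares were 14.04%, where over all 1622 such regions 20% ranked lower and 18.7% higher. The excess on the lower side was thus not seen among these stronger members. That setting leaves out members that are low in either line, so it says nothing of the weaker ones.

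Where the wild-type summit lay relative to cohesin went with the direction of the rank difference. Of the 1043 members with that summit within 100 bp of the cohesin centre, 25.7% (23.1 to 28.5%) ranked over 20 points lower in the mutant and 16.8% (14.6 to 19.2%) higher. Of the 555 farther away, 19.1% (15.9 to 22.6%) ranked lower and 23.1% (19.6 to 26.8%) higher. Over 200 bp away the shares were 16.4% (11.7 to 22.0%) and 26.6% (20.8 to 33.1%) of 214 members. The members over 200 bp away also had weaker cohesin, with a median empty-vector RAD21 fold of 12.8 against 23.2 at 25 to 100 bp, and were wider, 400 bp against 333 bp.

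Cohesin strength was also compared. Among the 799 members above the median of the lowest cohesin percentile, 25.4% (22.4 to 28.6%) ranked lower in the mutant and 17.3% (14.7 to 20.1%) higher. Among the 799 others the shares were 21.4% (18.6 to 24.4%) and 20.7% (17.9 to 23.6%). With both features together, the 555 members near the centre with stronger cohesin had 27.9% lower and 15.1% higher, and the 311 members far from it with weaker cohesin had 18.6% lower and 23.8% higher. By quintile of cohesin strength, weakest first, the median difference was 1.32, -2.22, -0.28, -1.26 and -3.03 points, and 17.8%, 25.3%, 22.9%, 23.8% and 27.3% ranked lower. The order was not steady, since the quintile next to the weakest lay close to the strongest.

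These shares depend on how regions are ranked and on which summit defines the place. Ranked by fold, members within 100 bp had 22.9% lower and 12.9% higher, and those over 100 bp away 17.7% and 19.1%. The shares over all narrow shared regions by fold were 16.3% lower and 16.0% higher. Ranked by pileup the values were 18.7% and 12.7% near the centre and 14.2% and 17.1% away from it. Over all narrow shared regions they were 15.7% and 16.0% by pileup, near the values away from the centre. Placed by the mutant summit, members within 100 bp had 25.6% lower and 17.8% higher. Those over 100 bp away had 19.8% lower and 20.8% higher, and those over 200 bp away 21.1% lower and 22.9% higher. The contrast away from the centre was thus smaller by the mutant summit. By pileup the members with stronger and with weaker cohesin both had 17.1% lower, so the difference with cohesin strength was not found on that scale. Without the 45 high-background members the near group had 26.3% lower and 17.2% higher.

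**Figure D5:**
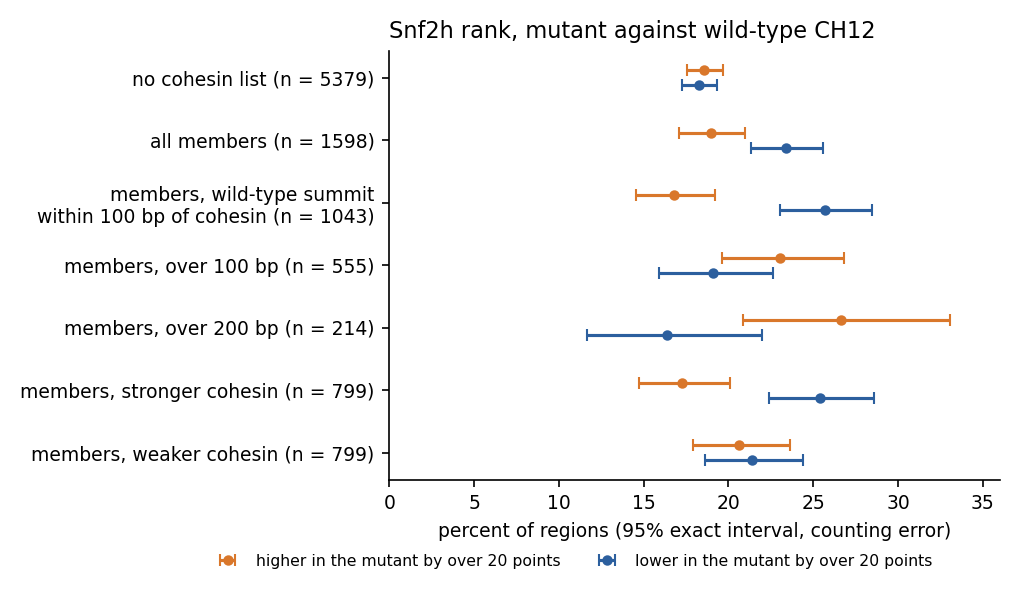
Percent of regions (x axis, exact 95% intervals) whose Snf2h rank by −log10 p differed by over 20 percentile points between mutant and wild-type CH12, higher or lower in the mutant, for regions with no cohesin list, for all members and for members split by the distance of the wild-type summit from the cohesin centre or by cohesin strength. The lower share exceeds the higher one within 100 bp (25.7% and 16.8%), and the order is turned over 200 bp away (16.4% and 26.6%).

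The members whose rank was farthest down in the mutant had fewer Snf2h fragments there. Pileups are not scaled for depth, and the lowest background was 3.36 in wild-type and 2.58 in mutant cells. At chr7:30990355-30990747 the wild-type pileup was 42 fragments and the mutant one 18, with folds of 6.41 and 3.56, a difference of -77.7 percentile points. Cohesin was strong there, with folds of 49.2, 51.0 and 59.1 for SMC1, RAD21 and SMC3 in empty-vector cells and 26.5, 49.9 and 41.2 in BORIS cells. At chr16:91460059-91460515 the pileup was 89 and 31 and the fold 5.52 and 2.92. At chr3:94752235-94752552 the pileup was 54 and 21 and the fold 5.97 and 3.46. The other 2 of the 5 were chr6:34314355-34314735, with pileups of 30 and 14 and folds of 5.57 and 3.41, and chr5:66097352-66097798, with pileups of 35 and 21 and folds of 4.57 and 2.70.

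The members farthest up in the mutant had more fragments there, in unscaled pileups, although the mutant list had the lower background. At chr11:93948265-93948596 the wild-type pileup was 18 fragments and the mutant one 35, with folds of 3.11 and 7.12, a difference of 73.6 points. Its cohesin folds were 23.4, 25.03 and 26.4 for SMC1, RAD21 and SMC3 in empty-vector cells and 17.3, 13.6 and 15.8 in BORIS cells. At chr2:179919422-179919780 the pileup was 18 and 45 and the fold 3.72 and 10.7. The other 3 were chr15:55388701-55389108 with folds of 2.72 and 4.95, chr5:137775206-137775528 with 2.79 and 6.01, and chr6:54987530-54987965 with 3.05 and 5.86. Their cohesin folds ranged from 3.18 to 56.8, so regions far up in rank included weak and strong cohesin sites.

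Across all members, with Snf2h strength not matched, the ranks of the lines were also less closely correlated than elsewhere. Spearman's rho between the wild-type and the mutant rank was 0.51 across members, 0.67 across the 5379 regions with no cohesin and 0.65 across the 946 regions with 1 to 5 lists. Members cover a narrower and weaker span of ranks, and points share their libraries, so the coefficients are description. In deciles 1 to 3 of Snf2h strength 29.2% of members ranked lower and 25% higher, against 26.3% and 27.6% without cohesin. In deciles 4 to 7 the shares were 25.8% and 20.1% against 25.1% and 25.6%. In deciles 8 to 10 they were 4.03% and 2.56% against 4.00% and 3.34%. In each band the share ranked lower was about equal or larger at members, and the share ranked higher was smaller. At like strength, large differences in both directions were thus not more common at members.

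Across members, Snf2h and cohesin strength had a weak negative relation that did not hold on the fold scale. Spearman's rho between the lower Snf2h rank and the lowest cohesin percentile was -0.16 by −log10 p and 0.005 by fold, over 1598 members. From the bottom to the top quintile of cohesin strength the median Snf2h rank went from 44.3 to 35.2 in wild type and from 48.1 to 30.4 in the mutant. The median folds hardly differed, at 3.58 and 3.69 in wild type and 4.31 and 4.02 in the mutant.

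The neighbouring classes of Snf2h regions show what narrow width and sharing select. Among shared regions at least 500 bp wide, 607 of 2242 (27.1%, 25.2 to 28.96%) touched all 6 cohesin lists. Among narrow regions called in wild type only the share was 1800 of 6388 (28.2%, 27.1 to 29.3%), and among those called in the mutant only it was 2618 of 12787 (20.5%, 19.8 to 21.2%). The Snf2h summit of the wild-type-only regions lay a median of 65.5 bp (63 to 68.5) from the cohesin centre, and that of the mutant-only regions 81.5 bp (78.5 to 84.5). These resemble the wild-type (71.5 bp) and mutant (80 bp) summits at members. Wide shared regions had 141.5 and 156 bp.

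Most narrow shared regions outside the set touched no cohesin list at all. Of the 188 regions that touched exactly 5 cohesin lists, 78 (41.5%) lacked the BORIS RAD21 list and 50 (26.6%) the empty-vector RAD21 list, which were the 2 shortest lists. Another 27 lacked BORIS SMC1, 13 BORIS SMC3, 12 empty-vector SMC3 and 8 empty-vector SMC1.

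The width limit passed through a continuous range of values. The 3 members of 499 bp were chr2:32391705-32392203 with Snf2h folds of 3.70 and 6.70, chr8:71317505-71318003 with 3.92 and 4.48, and chr1:183819026-183819524 with 4.39 and 3.56. Just outside, at 500 bp, were chr18:36847378-36847877 with 4.38 and 4.11, chr10:43172072-43172571 with 3.94 and 3.43, and chr2:112208036-112208535 with 2.85 and 4.12.

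Members were found on every one of the 19 chromosomes and were mostly far apart. Their number ranged from 30 on chromosome 18 to 177 on chromosome 11. As a share of narrow shared regions they ranged from 14.5% (11.6 to 17.9%) on chromosome 1 to 27.4% (22.9 to 32.2%) on chromosome 3, and reached 25.5% (22.3 to 28.96%) on chromosome 11. The median gap between neighbours was 444430 bp, and 3.74% of gaps were at most 10 kb, against 8.69% among the more numerous regions with no cohesin. The median rank difference between mutant and wild type was most negative on chromosome 3, at -7.34 points against -1.003 for regions there with no cohesin, and most positive on chromosome 5, at 2.14 against -0.58 points.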

How the data were processed

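Peak lists of 8 mouse ChIP-seq samples were used, and 22 samples of the series were not analysed here. The lists have the narrowPeak layout. The authors deposited for each region a score, a fold (a ratio, which fits summit pileup plus 1 over local background plus 1, so that it understates enrichment where the background is low), and −log10 p and −log10 q values of the summit, all the authors' own. The submitters' processing notes name Bowtie, Bowtie2, SAMtools, MACS2, deepTools, mm9 and hg19 without roles. Filters and controls are not given in the sources used here. The Snf2h and cohesin backgrounds may be of unlike kinds, so Snf2h and cohesin folds cannot be set on 1 scale. Region names carry a tag that may mean pooled replicates, so each list counted as 1 sample.

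Members and comparison sets were built with Python 3.11.15, pandas 2.3.3, numpy 2.4.6 and scipy 1.17.1. The strongest peak of each list stood for a merged region. Pileup and background were solved from that fold and a Poisson −log10 p, and the pileup came out whole, within 0.001 in −log10 p, at 100% of the summits checked with a −log10 p under 300. The code was tested on simulated data. Ranks were taken over the same regions in both lists. Shares carry exact (Clopper-Pearson) 95% intervals and medians order-statistic intervals, for counting error only. With 1 list per group, groups were described and not tested.

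Members and rules were chosen with earlier results of these data known. Regions named were the 5 members with the highest lower Snf2h percentile, the 5 with the largest rank difference each way, the 3 strongest by lowest cohesin percentile, the 3 weakest by lower Snf2h percentile and the 3 nearest to 500 bp on each side. The separation by local background and the split by summit place were chosen after seeing the data. Alternatives were other widths, overlaps, cohesin lists, a −log10 q of at least 10, ranks by fold or pileup, the other summit, and chromosomes left out. Sequence and motifs were not analysed here.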

Additional observations from a re-analysis of the deposited data

Results flagged for a closer look

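Chromosome X lies outside the rule, which takes chromosomes 1 to 19, and was looked at because the lists hold it. There 12 of 189 narrow shared Snf2h regions touched all 6 cohesin lists, 6.35% (exact 95% interval 3.32 to 10.8%), where a count of 0 would allow up to 1.59%. The share was 20.2% on chromosomes 1 to 19, and the lowest of any of them was 14.5%, on chromosome 1. The cause was not tested.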

How the results depend on the processing

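No paired analysis was possible because each group had 1 list. The number of members was 454 with a width under 300 bp, 2544 with at least 1 cohesin list and 178 where both Snf2h peaks had a −log10 q of 10 or more (the strict setting), each by the construction of the alternative. It was 1144 to 2172 under the other alternatives for width, overlap and cohesin lists. The share ranked over 20 points lower in the mutant, 23.4%, was 21.1% by fold, 17.1% by pileup and 14.04% under the strict setting. The share ranked higher, 18.96%, was 15.1%, 14.2% and 14.04% in the same order. Over all narrow shared regions the lower and higher shares were 16.3% and 16.0% by fold and 15.7% and 16.0% by pileup. Under the strict setting, the summits of the lines were 16 bp apart instead of 48 bp. The median distance from the Snf2h summit to the nearest cohesin summits, 72 bp in wild type, was 80 bp with the mutant summit. The median cohesin percentile of the members' regions over all lists, 70.1, was 66.1 by fold and 58.4 under the strict setting. The rank correlation of Snf2h with cohesin strength, -0.16, was 0.00503 by fold, -0.18 without chromosomes 4, 14 and 15 and -0.14 without the 45 high-background members. The cause of the moved values was not tested beyond the construction named. Leaving out those 45 members, an alternative chosen after seeing the data, left the counts and medians above within their intervals (1553 members, 23.95% lower, 19.1% higher, 49 bp between summits). Depth limits what single regions show, since a typical member rests on 25 fragments at its summit.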
